A study of Homo sapiens with 6 samples.

Results

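Keratins are the intermediate filament proteins of epithelial cells, and 9 keratin genes that mark simple and stratified epithelium (KRT5, KRT7, KRT8, KRT14, KRT15, KRT17, KRT18, KRT19 and KRT23) were examined here. They were chosen by gene symbol among the 58735 genes of the count table. The libraries came from H9 cells (WA09), a line of human embryonic stem cells first grown on a feeder layer of MEF, which were differentiated into endoderm of the third pharyngeal pouch (3PPE). All cultures received Activin A, WNT3A and the ROCK inhibitor Y-27632, and later RA, SB431542, BMP4 and IWP2. They were treated with siRNA by lipofection at day 7 and harvested at day 9. The 3 NC cultures received a negative control siRNA and carry the genotype label WT, and the 3 Si-HOXA3 cultures received siRNA against HOXA3 and are labelled HOXA3 knockdown. One cell line was used. The study calls its triplicates independent biological repeats, but the labels do not say what made the 3 libraries of a group separate, so the p-values measure only the spread between these libraries. The NC libraries held 14885355, 15171278 and 15191386 counts and the Si-HOXA3 libraries 14652931, 15282307 and 14117150 counts. Here and below, the values of a group are listed in the order of its replicates 1, 2 and 3.

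A keratin filament is built from pairs of 1 type I and 1 type II chain, and a chain without a partner is degraded. KRT8 and KRT18 form the filament of simple, single-layered epithelium, to which KRT7 (type II) and KRT19 (type I) are often added. KRT5 and KRT14 form the filament of the basal layer of stratified epithelium such as epidermis, where KRT15 is also found, while KRT17 is known from skin appendages and wounded epidermis, and KRT23 is a type I keratin of less known role. In the thymus, the organ that the third pharyngeal pouch gives rise to, KRT8 protein is used as a marker of cortical and KRT5 protein as a marker of medullary epithelial cells. The comparison addresses whether the keratin genes of 3PPE differ in RNA level when HOXA3 is inhibited.

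The 9 genes lie in 2 clusters of GRCh38. The type II genes KRT5 (ENSG00000186081, chr12:52514575-52520687), KRT7 (ENSG00000135480, chr12:52232520-52252186) and KRT8 (ENSG00000170421, chr12:52897187-52949954) are on chromosome 12, as is KRT18 (ENSG00000111057, chr12:52948871-52952901), the type I gene beside KRT8. The other type I genes are on chromosome 17, where KRT14 (ENSG00000186847) spans chr17:41582279-41586921 and KRT15 (ENSG00000171346) spans chr17:41513743-41522529. KRT17 (ENSG00000128422) spans chr17:41619441-41624842, KRT19 (ENSG00000171345) spans chr17:41523617-41528308 and KRT23 (ENSG00000108244) spans chr17:40922696-40937634. The following coding bases, 45 in each gene shown, encode the end of the helical rod, the part by which keratins are most alike. They are shown to compare the genes, and whether reads from these bases match more than 1 keratin gene was not tested. Capitals mark the 18 bases that were the same in all 9 genes.
KRT7: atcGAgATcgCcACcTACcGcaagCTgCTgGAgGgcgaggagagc
KRT5: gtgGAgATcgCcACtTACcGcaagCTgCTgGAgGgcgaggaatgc
KRT18: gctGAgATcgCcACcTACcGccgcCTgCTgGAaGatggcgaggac
KRT19: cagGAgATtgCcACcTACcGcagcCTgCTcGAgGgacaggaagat
KRT17: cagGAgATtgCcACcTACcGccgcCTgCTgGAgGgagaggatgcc
KRT15: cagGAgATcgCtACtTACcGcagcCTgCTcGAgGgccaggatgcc
KRT14: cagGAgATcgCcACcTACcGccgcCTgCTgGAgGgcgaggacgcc
KRT23: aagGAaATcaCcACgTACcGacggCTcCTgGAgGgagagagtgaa

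These bases were read from annotated transcripts, 5′ to 3′ on the coding strand. They lie in exon 7 of 9 in KRT7 (chr12:52245586-52245630, plus strand) and KRT5 (chr12:52516639-52516683, minus strand). In KRT18 they lie in exon 6 of 7 (chr12:52952293-52952337, plus strand) and in KRT19 in the last of its 6 exons (chr17:41523779-41523823, minus strand). In KRT17 (chr17:41620661-41620705), KRT15 (chr17:41515474-41515518) and KRT14 (chr17:41583237-41583281) they lie in exon 6 of 8 on the minus strand, and in KRT23 (chr17:40925356-40925400) in exon 7 of 9 on the minus strand. Among the genes shown, which do not include KRT8, KRT14 and KRT17 were the most alike here, with 42 of 45 bases the same. Over the whole coding sequence the most alike pair was KRT14 and KRT17, with 85.2% of aligned bases the same, while KRT7 and KRT8 had 76.2%. The share of a gene's 50-base stretches that also occurred in another annotated gene was 24.5% for KRT18, 16.8% for KRT14 and 16.1% for KRT8. This is a share of annotated sequence and not of counts, and its effect on the counts was not measured. It was 9.02% for KRT17, 5.70% for KRT7, 3.12% for KRT23, 2.17% for KRT5, 1.16% for KRT15 and 0.977% for KRT19. KRT8 and KRT18 overlap by 1084 bases on opposite strands, and no source says that reads were counted by strand, so reads from that overlap cannot be assigned to either gene.

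HOXA3, the gene the siRNA was directed at, had 16.7, 15.9 and 15.5 CPM (counts scaled to the normalized library size) in the NC libraries against 10.9, 13.2 and 15.5 CPM in the Si-HOXA3 libraries. The lowest NC value (15.46 CPM) lay under the highest Si-HOXA3 value (15.49 CPM), and HOXA3 did not pass the test (log2 fold change -0.27, adjusted p = 0.828, edgeR's quasi-likelihood test with Benjamini-Hochberg adjustment over 16561 genes). The log2 fold change of HOXA3 was between -0.40 (without Si-HOXA3 replicate 3, unadjusted p = 0.0385, edgeR) and -0.15 (without Si-HOXA3 replicate 1) when a library was left out. With limma-voom it was -0.34 (unadjusted p = 0.0290, adjusted p = 0.312), and no alternative gave an adjusted p under 0.05. The study itself reported lower HOXA3 RNA by qRT-PCR and lower HOXA3 protein by Western blot and immunofluorescence after the siRNA. Those assays were not examined here. The library labelled Si-HOXA3 replicate 2 stood apart from the others. Its mean chi-square per gene was 31.0 against Si-HOXA3 replicate 1 and 34.1 against replicate 3, whereas it was 5.85 between those libraries and 4.83 to 9.48 between pairs of NC libraries. The log2 fold changes of the keratin genes are therefore given with and without that library.

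The 9 keratin genes fell into 3 levels. KRT8, KRT18, KRT19 and KRT7, the keratins of simple epithelium, were abundant in all 6 libraries. KRT17, KRT23 and KRT15 were at a few CPM or below, and KRT5 and KRT14, the basal pair of stratified epithelium, were at or near 0. The 9 genes together took 0.704%, 0.711% and 0.701% of all counts in the NC libraries, and 0.656%, 0.860% and 0.673% in the Si-HOXA3 libraries. Of the counts on the 9 genes, the 5 less abundant genes held at most 0.0964% in any library.

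**Figure D1:**
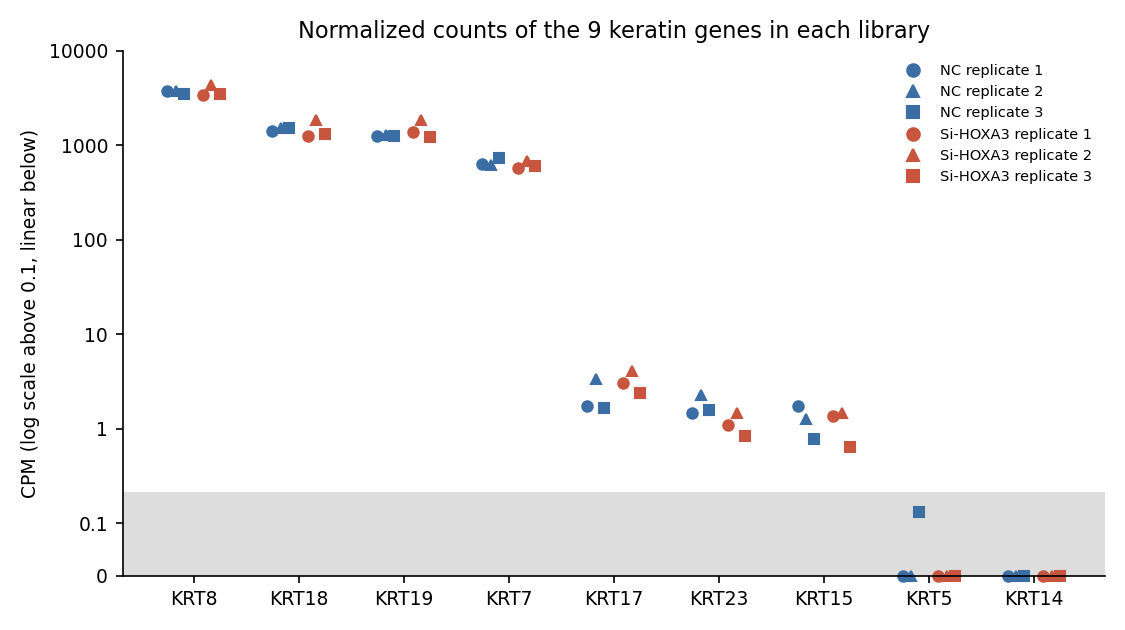
Normalized counts (CPM, log scale above 0.1 and linear below) of the 9 keratin genes, 1 point per library, with NC in blue and Si-HOXA3 in red and the replicates as circles, triangles and squares. The grey band ends at 0.211 CPM, the highest value that 3 counts were worth in a library. KRT8, KRT18, KRT19 and KRT7 lie at 578 CPM or more in each library, and KRT5 and KRT14 lie inside the band.

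Because longer genes collect more reads, levels were compared between genes as TPM, counts per base of gene length scaled to the same total in each library. With the length of the union of a gene's exons, KRT19 had 2136 ± 49.8 TPM in NC against 2413 ± 397 TPM in Si-HOXA3 (SD, n = 3 each). KRT8 had 2084 ± 50.0 TPM in NC against 2066 ± 176 TPM in Si-HOXA3, and KRT18 had 1827 ± 95.4 TPM in NC against 1741 ± 288 TPM in Si-HOXA3 (SD, n = 3 each). KRT7 had 640 ± 67.6 TPM in NC against 579 ± 28.2 TPM in Si-HOXA3 (SD, n = 3 each). Over the 6 libraries the range of KRT8 (1905 to 2253 TPM) overlapped that of KRT19 (2084 to 2860 TPM) and that of KRT18 (1519 to 2066 TPM). The lowest library of KRT19 lay above the highest of KRT18, and KRT7 (546 to 718 TPM) lay below all of them. Within a library KRT19 had at least 1.14 TPM for each TPM of KRT18, and 0.886 to 1.17 with the principal transcripts described next. On this scale KRT19 ranked 29, KRT8 31, KRT18 37 and KRT7 140 among the 34513 genes with any count.

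The order of the abundant genes depended on the length used. KRT8 has 6881 bases in the union of its exons against a mean of 1921 in its principal transcripts, the forms that the annotation marks as the main ones. With principal transcripts KRT8 came first, at 4636 ± 173 TPM in NC against 4574 ± 355 TPM in Si-HOXA3 (SD, n = 3 each), and ranked 15 among all genes. Its lowest library (4226 TPM) then lay above the highest of KRT19 (2939 TPM) and of KRT18 (2726 TPM). KRT7 remained the lowest of the 4 genes, at 790 to 1024 TPM. The files hold counts per gene and not per transcript, so which length holds was not tested.

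Among the scarce keratins, KRT17 was at 2.11 to 4.64 TPM, KRT23 at 1.16 to 3.03 TPM and KRT15 at 0.358 to 0.963 TPM over the 6 libraries with the union of exons. The ranges of KRT17 and KRT23 overlapped, and KRT15 lay below both. With principal transcripts the highest library of KRT15 (1.12 TPM) reached the lowest of KRT23 (1.06 TPM).

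The partner chains were compared within each library. Summed over the 9 genes, type II keratins had 0.712, 0.681 and 0.669 TPM for each TPM of type I keratins in the NC libraries, with the union of exons. The ratio was 0.644, 0.578 and 0.704 in the Si-HOXA3 libraries. The groups overlapped, and Si-HOXA3 replicate 2 was the lowest library. With principal transcripts the same ratio was 1.24, 1.18 and 1.14 in NC and 1.14, 1.02 and 1.23 in Si-HOXA3, so whether type I or type II chains had more TPM depended on the length. KRT8 had 1.06 to 1.25 TPM for each TPM of KRT18, its partner, with the union of exons, and 1.75 to 2.08 with principal transcripts. No such ratio can be given for the pair of KRT5 and KRT14, which had 2 counts and 0 counts in all.

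**Figure D2:**
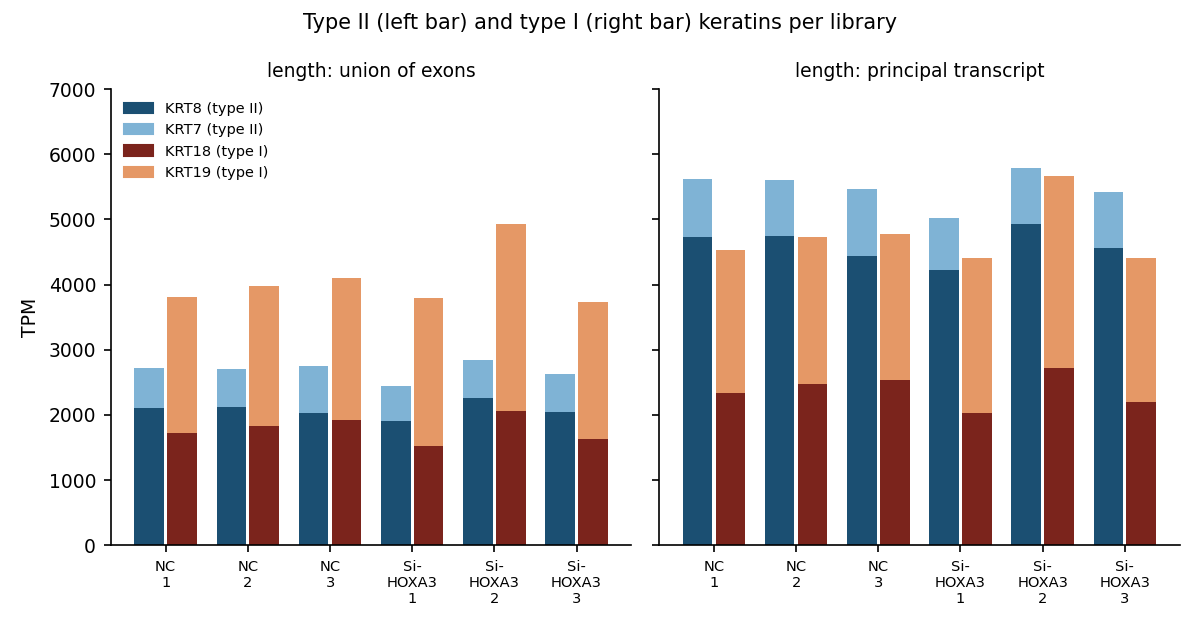
Level in TPM of the abundant type II keratins (left bar of each library, KRT8 and KRT7) and type I keratins (right bar, KRT18 and KRT19) in the 6 libraries, with gene length taken as the union of exons (left panel) or the principal transcript (right panel). The type I bar is taller in each library of the left panel and the type II bar in each library of the right panel.

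KRT8, the type II chain of simple epithelium, had 3722, 3716 and 3455 CPM in the NC libraries against 3388, 4331 and 3522 CPM in the Si-HOXA3 libraries. Si-HOXA3 replicate 2 was the highest library and Si-HOXA3 replicate 1 the lowest, so the groups overlapped. NC averaged 3631 ± 153 CPM and Si-HOXA3 averaged 3747 ± 510 CPM (SD, n = 3 each), which gave a log2 fold change of 0.05 (95% interval -0.25 to 0.34, adjusted p = 0.957, edgeR). Without Si-HOXA3 replicate 2 it was -0.07 (standard error 0.0725, adjusted p = 0.759, edgeR), with the opposite sign.

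KRT18, the type I partner of KRT8, had 1426, 1507 and 1530 CPM in NC against 1264, 1857 and 1322 CPM in Si-HOXA3. Si-HOXA3 replicates 1 and 3 lay below all 3 NC libraries and Si-HOXA3 replicate 2 lay above them. On average the groups were level (log2 fold change -0.01, 95% interval -0.34 to 0.33, adjusted p = 0.994, edgeR), and the spread of the Si-HOXA3 libraries (22.1% of their mean) was larger than that of the NC libraries (3.68%). Without Si-HOXA3 replicate 2 the log2 fold change was -0.21 (standard error 0.0709), with an unadjusted p of 0.00962 and an adjusted p of 0.311 by edgeR, when 10.7% of the 17144 genes then tested had an unadjusted and 0.14% an adjusted p under 0.05.

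KRT19, the smallest keratin and a type I chain often found with KRT8, had 1248, 1277 and 1263 CPM in NC against 1377, 1866 and 1230 CPM in Si-HOXA3. The NC libraries lay close together (SD 1.17% of the mean) and inside the range of the Si-HOXA3 libraries, since Si-HOXA3 replicate 3 was the lowest of the 6. KRT19 had a log2 fold change of 0.24 (95% interval -0.09 to 0.57, adjusted p = 0.829, edgeR) and a p of 0.4 in the exact two-sided permutation test. Without Si-HOXA3 replicate 2 it was 0.04 (standard error 0.0720, adjusted p = 0.880, edgeR). Without Si-HOXA3 replicate 3 it was 0.36 (unadjusted p = 0.0332, adjusted p = 0.578, edgeR).

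KRT7, the second type II chain of simple and glandular epithelium, had 636, 623 and 728 CPM in NC against 578, 683 and 608 CPM in Si-HOXA3. The highest library was NC replicate 3, and Si-HOXA3 replicates 1 and 3 were the lowest. KRT7 had a log2 fold change of -0.09 (95% interval -0.34 to 0.17, adjusted p = 0.910, edgeR), and -0.16 (standard error 0.0775, unadjusted p = 0.0498, adjusted p = 0.468, edgeR) without Si-HOXA3 replicate 2, when both remaining Si-HOXA3 libraries lay below all NC libraries. KRT7 overlaps KRT7-AS, an antisense gene with 839 counts over the 6 libraries against 57344 on KRT7, and reads of the overlap could not be separated by strand.

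The intervals of these 4 genes bound the difference that the 6 libraries leave possible, as a fold of Si-HOXA3 over NC. They were 0.844 to 1.26 for KRT8, 0.791 to 1.25 for KRT18, 0.938 to 1.49 for KRT19 and 0.788 to 1.12 for KRT7. In bulk RNA, fewer keratin-expressing cells and less keratin RNA per cell cannot be told apart.

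KRT17, a type I keratin of stressed and appendage epithelium, had 26, 51 and 25 counts (1.75, 3.37 and 1.64 CPM) in NC and 44, 61 and 34 counts (3.03, 4.06 and 2.39 CPM) in Si-HOXA3. The groups overlapped because NC replicate 2 lay above Si-HOXA3 replicates 1 and 3. KRT17 had a log2 fold change of 0.49 (95% interval -0.26 to 1.24, adjusted p = 0.843, edgeR), 0.90 without NC replicate 2 (unadjusted p = 0.0279, adjusted p = 0.997, edgeR) and 0.26 without Si-HOXA3 replicate 2.

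KRT23 had 22, 34 and 24 counts (1.48, 2.25 and 1.57 CPM) in NC and 16, 22 and 12 counts (1.10, 1.46 and 0.845 CPM) in Si-HOXA3. It was the only one of the 7 genes tested whose groups did not overlap, and the nearest libraries, NC replicate 1 and Si-HOXA3 replicate 2, both had 22 counts. Of all 16561 genes tested, 13.3% had groups that did not overlap and 6.88% did so with lower values in Si-HOXA3. For KRT23 the log2 fold change was -0.63 (95% interval -1.43 to 0.18, adjusted p = 0.828, edgeR), and the exact two-sided permutation p was 0.1, the smallest that 3 libraries against 3 can give. It was -0.86 without Si-HOXA3 replicate 2 (adjusted p = 0.512, edgeR).

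KRT15, a type I keratin of basal cells, had 26, 19 and 12 counts (1.75, 1.26 and 0.786 CPM) in NC and 20, 22 and 9 counts (1.38, 1.46 and 0.634 CPM) in Si-HOXA3. Each group spread over more than its difference from the other, with an SD of 38.0% of the mean in NC and 39.4% in Si-HOXA3. The log2 fold change was -0.12 (95% interval -1.10 to 0.86, adjusted p = 0.966, edgeR), and -0.33 without Si-HOXA3 replicate 2 (adjusted p = 0.870, edgeR).

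KRT5, the basal type II chain, had 2 counts in NC replicate 3 (0.131 CPM) and 0 in each of the other 5 libraries. KRT14, its type I partner, had 0 counts in all 6 libraries, which allows up to 3 counts per library, or between 0.197 and 0.211 CPM. This limit covers counting error only. Neither gene passed the filter on low counts, and no difference was detectable at this depth.

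Of the 9 keratin genes, 7 were tested and 0 passed an adjusted p of 0.05 by edgeR, where 0.00604% of all genes tested did. At an unadjusted p under 0.05 there were also 0 of 7 by edgeR, against 6.36% of all genes, and 0 of 7 by DESeq2, against 5.65% of all genes. With no filter on low counts KRT19 had an unadjusted p of 0.0421 by edgeR, when 5.4% of the 34513 genes then tested had one under 0.05. With limma-voom and sample quality weights 2 of 7, KRT18 (log2 fold change -0.18) and KRT23 (-0.85), had an unadjusted p under 0.05, against 13.4% of all genes in that fit, and 0 passed an adjusted p of 0.05. The log2 fold change was above 0 in 3 genes and below 0 in 4, with a median of -0.01 against 0.00 over all genes tested. Without Si-HOXA3 replicate 2 the medians were -0.16 and 0.00.

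**Figure D3:**
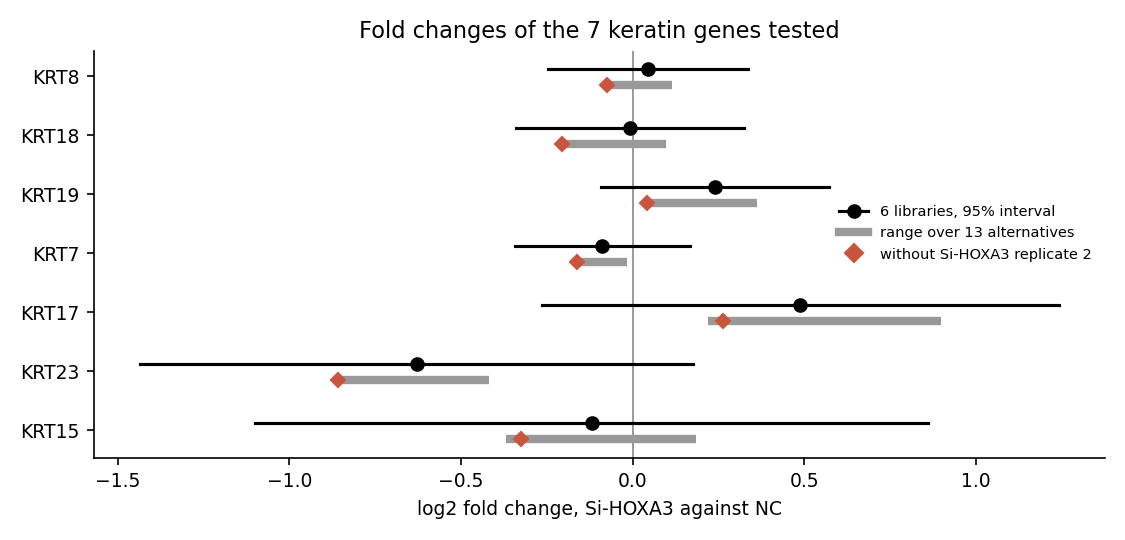
Log2 fold change of Si-HOXA3 against NC for the 7 keratin genes tested, with the 95% interval of the edgeR fit on 6 libraries (black), the range over 13 alternatives (grey) and the value without Si-HOXA3 replicate 2 (red diamond). The black interval of each gene includes 0, and the red diamond lies to the left of the black point for all 7 genes.

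Si-HOXA3 replicate 2 was the highest of the 6 libraries for KRT8, KRT18, KRT19 and KRT17, that is for 4 of the 7 genes tested, against 28.9% of all genes tested. Relative to the NC mean it had 1.19 times the CPM of KRT8, 1.25 times that of KRT18, 1.48 times that of KRT19 and 1.80 times that of KRT17. The other Si-HOXA3 libraries had 0.933 and 0.970 times the NC mean for KRT8 and 0.850 and 0.889 times for KRT18. The part of this library's other differences in these values was not tested.

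**Figure D4:**
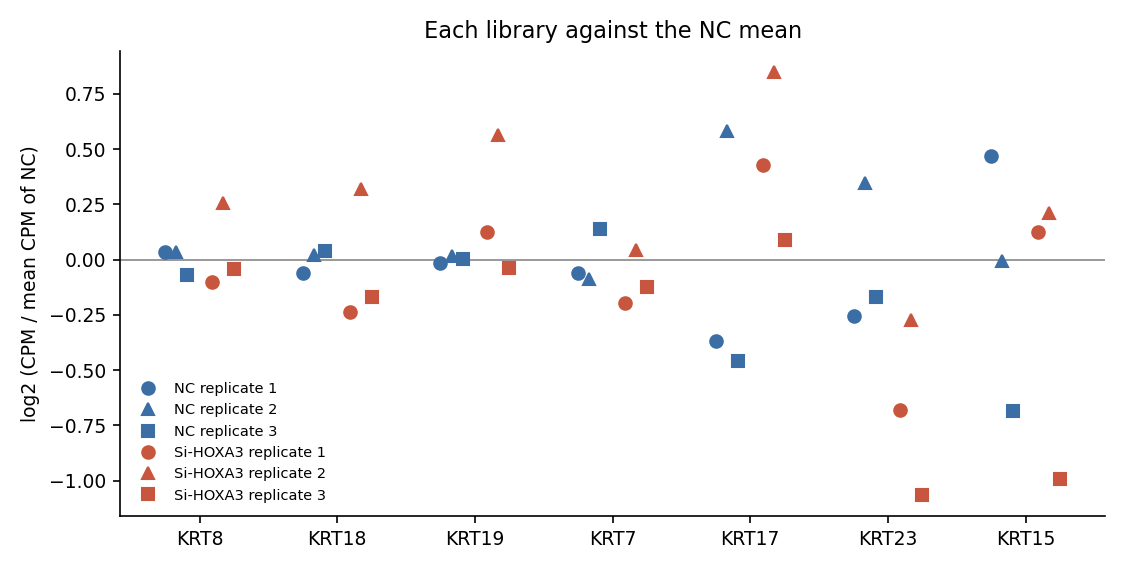
Log2 of the CPM of each library over the mean CPM of NC for the 7 keratin genes tested, with symbols as in the plot of CPM. Si-HOXA3 replicate 2 (red triangle) is the highest point for KRT8, KRT18, KRT19 and KRT17, and the scarce genes on the right spread more widely than the abundant genes on the left.

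A ratio of 2 keratins within a library does not depend on how the libraries were scaled. All 21 pairs of the 7 genes tested were compared in this way, and the groups did not overlap in 6 pairs. Of these, 5 shared KRT23, whose own groups did not overlap, and are not separate results. The share of such pairs among all genes was not computed. The sixth was KRT18 with KRT19. KRT18 had 1.14, 1.18 and 1.21 counts for each count of KRT19 in the NC libraries but 0.918, 0.995 and 1.08 counts in the Si-HOXA3 libraries. The Si-HOXA3 values were lower in 3 of 3 libraries, including replicate 2, in which both genes were at their highest CPM. The exact two-sided permutation p was 0.1, the smallest possible, and 0.35 after Benjamini-Hochberg adjustment over the 21 pairs, so the difference did not pass. The pair was singled out after its values were seen. For the partners KRT8 and KRT18 the ratio of counts was 2.61, 2.47 and 2.26 in NC and 2.68, 2.33 and 2.66 in Si-HOXA3, and the groups overlapped.

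The genes whose log2 CPM varied most like each keratin over the 6 libraries were named by Pearson correlation, as a description with no test, since all these values rest on the same 6 libraries, among them the one that stood apart. Like KRT8 were ABHD12 (r = 0.99), ATG14 (0.99) and TLCD1 (0.99), and like KRT18 were SIVA1 (1.00), NCAPH2 (1.00) and URI1 (0.99). Like KRT19 were TUBB6 (0.99, a tubulin gene), TCEAL9 (0.99) and YARS (0.99), and like KRT7 were KRBOX4 (0.98), MAP2K3 (0.98) and CHCHD4 (0.98). Like KRT17 were TOP2B (0.99), EIF4EP2 (0.99) and AL121917.1 (0.98), like KRT15 were EFL1 (0.98), LINC02346 (0.98) and AL078621.1 (0.97), and like KRT23 were GALNT7 (1.00), SLC35A5 (0.99) and KIAA0895 (0.99). The partners KRT8 and KRT18 had r = 0.87 over 6 libraries, which placed KRT18 at rank 537 of 16560 genes by likeness to KRT8, and r = 0.50 without Si-HOXA3 replicate 2. For KRT8 and KRT19 the correlation was 0.82 with that library and -0.54 without it.

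Of the other 46 protein-coding keratin genes in the table, 28 had no count, 15 had between 1 and 50 counts in all, and 3 had more. These 3, KRT10, KRT80 and KRT16, were the only ones tested, and 0 passed an adjusted p of 0.05 by edgeR. KRT10, the type I keratin of suprabasal epidermis, had 7.12, 4.10 and 8.25 CPM in NC against 12.03, 10.9 and 8.24 CPM in Si-HOXA3. Its groups just overlapped, at NC replicate 3 and Si-HOXA3 replicate 3. KRT10 had a log2 fold change of 0.68 (standard error 0.253, unadjusted p = 0.0211, adjusted p = 0.724, edgeR), where 3.79% of all genes tested were higher and 2.57% lower at an unadjusted p under 0.05. Without Si-HOXA3 replicate 2 it was 0.64 (unadjusted p = 0.0256, adjusted p = 0.397, edgeR), and it had an unadjusted p of 0.0827 by edgeR without NC replicate 2 and of 0.0756 without Si-HOXA3 replicate 1. KRT10 overlaps TMEM99 on the opposite strand by 3490 bases, and TMEM99 had 671 counts over the 6 libraries against 750 on KRT10. Reads of the overlap cannot be told apart without strand, so the values of KRT10 are uncertain. The type II partner of KRT10, KRT1, had 36 counts in all. KRT80 (NC 6.81 ± 1.22 CPM, Si-HOXA3 5.22 ± 0.972 CPM) and KRT16 (NC 2.97 ± 1.43 CPM, Si-HOXA3 3.48 ± 0.735 CPM, SD, n = 3 each) had adjusted p-values of 0.828 and 0.919 by edgeR. KRT16, a type I keratin of wounded epidermis, shares 7.90% of the 50-base stretches of KRT14, which itself had no count.

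Keratin genes have many processed pseudogenes, to which reads of the parent gene can be assigned. The 50 KRT8 pseudogenes in the table had 1480 counts in all, 0.450% of the 328809 on KRT8, and KRT8P3 had the most (580 counts). The 67 KRT18 pseudogenes had 305 counts, 0.230% of those on KRT18, and the 5 KRT19 pseudogenes had 15 counts. Adding these counts to the parent genes left the log2 ratio of the group means at 0.05 for KRT8, -0.01 for KRT18 and 0.24 for KRT19.

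Desmosomal proteins and plakins anchor keratin filaments, 14-3-3 proteins bind them and chaperones turn them over. Of 25 such genes 22 were tested and 0 passed an adjusted p of 0.05 by edgeR. Their median log2 fold change was -0.01, and 0.05 without Si-HOXA3 replicate 2. Their summed level was 5554, 5430 and 5273 CPM in NC against 5566, 4869 and 5454 CPM in Si-HOXA3, with Si-HOXA3 replicate 2 the lowest. DSP, which ties keratin filaments to desmosomes, averaged 868 ± 84.3 CPM in the NC and 839 ± 181 CPM in the Si-HOXA3 libraries, and PKP2, another desmosomal plaque protein, averaged 848 ± 51.0 and 784 ± 12.6 CPM (SD, n = 3 each). YWHAZ, a 14-3-3 protein, was the most abundant gene of the list. At an unadjusted p under 0.05 by edgeR, 2 genes were higher and 0 lower. They were SFN, the 14-3-3 protein of epithelium that binds KRT17 (log2 fold change 0.70, standard error 0.194, adjusted p = 0.549, and 0.0152 with no filter), and STUB1, a chaperone-linked ubiquitin ligase (0.39, standard error 0.161, adjusted p = 0.741). STUB1 was no longer under that threshold without Si-HOXA3 replicate 2 (0.21, unadjusted p = 0.114, edgeR), NC replicate 2 or NC replicate 3.

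Other intermediate filament genes were present beside the keratins. Of 14 genes 10 were tested, and VIM, the filament of mesenchymal and many cultured cells, had 227, 259 and 265 CPM in NC against 300, 434 and 327 CPM in Si-HOXA3. All 3 Si-HOXA3 libraries lay above the NC libraries, with Si-HOXA3 replicate 2 the highest. VIM had a log2 fold change of 0.50 (standard error 0.142, unadjusted p = 0.00484, adjusted p = 0.561, edgeR), and 0.32 without Si-HOXA3 replicate 2 (unadjusted p = 0.000672, adjusted p = 0.110, edgeR). With no filter on low counts its adjusted p was 0.0165 by edgeR. LMNB1 and LMNB2, the B-type lamins of the nucleus, were the most abundant genes of the list and had adjusted p-values of 0.844 and 0.933 by edgeR.

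Of 24 transcription factor genes known to control keratin genes or epithelial identity, 23 were tested and 0 passed an adjusted p of 0.05 by edgeR. Their median log2 fold change was -0.01, and 0.06 without Si-HOXA3 replicate 2. TFAP2A, an AP-2 factor with known sites in keratin promoters, ESRP1, a splicing regulator of epithelium kept in the same list, and JUN, a part of AP-1, were the most abundant. JUN had 147, 142 and 131 CPM in NC against 195, 195 and 188 CPM in Si-HOXA3, without overlap (log2 fold change 0.46, standard error 0.0948, unadjusted p = 0.000493, adjusted p = 0.458, edgeR). Its adjusted p was 0.0267 by DESeq2 and 0.0122 by edgeR without Si-HOXA3 replicate 2. TFAP2B (0.60, unadjusted p = 0.00186) and TFAP2A (0.23, unadjusted p = 0.0496) were also higher at an unadjusted p under 0.05 by edgeR, and TFAP2B had an adjusted p of 0.0467 with limma-voom. In the edgeR fit on 6 libraries 0 genes of the list were lower at that threshold, but without Si-HOXA3 replicate 2 there were 2, GRHL1 (-0.18, unadjusted p = 0.0366, edgeR) and OVOL1 (-0.55, unadjusted p = 0.0468, edgeR).

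The labelled cell type was checked against lists of markers. Of 22 genes of pharyngeal and foregut endoderm 8 were tested. EPCAM, an epithelial surface protein, had 266, 254 and 269 CPM in NC against 289, 386 and 253 CPM in Si-HOXA3, and GATA6 had 52.0 to 58.3 CPM. FOXA2 and SOX17, which define endoderm, had 4 counts each over the 6 libraries, HHEX had 3, TBX1 had 19, and NKX2-1 and FGF8 had none. Of 11 thymic epithelial genes 3 were tested, and AIRE had 0 counts and FOXN1 and PSMB11 had 1 count each. CTSV was the most abundant of them, PRSS16 (-0.27) and CD74 (0.70) had an unadjusted p under 0.05 by edgeR, and CD74 had adjusted p = 0.416 by edgeR and 0.0105 by DESeq2.

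Markers of epithelium in general were measured beside the keratins. All 13 genes of simple epithelium were tested, 12 of them at a mean of 10 CPM or more, led by CD24, CLDN6 and CDH1. Their summed level was 2849, 2909 and 2890 CPM in NC against 2784, 3193 and 2823 CPM in Si-HOXA3, with Si-HOXA3 replicate 2 the highest, as for KRT8, KRT18 and KRT19. The genes of the list did not all follow the sum. In that library CD24 (723 CPM) and CLDN6 (785 CPM) were at their highest but CDH1 (540 CPM) was at its lowest. The median log2 fold change of the 13 genes was 0.06 (-0.02 without Si-HOXA3 replicate 2), and CLDN7 (0.31) had higher values at an unadjusted p under 0.05 by edgeR. Without Si-HOXA3 replicate 2, 2 genes of the list were higher at that threshold and 2 lower. The lower genes were MAL2 (-0.36, unadjusted p = 0.000328, edgeR) and CD24 (-0.17, unadjusted p = 0.0281, edgeR). Of 16 genes of basal stratified epithelium and surface ectoderm 14 were tested, with PERP and BNC1 the most abundant of those named, NGFR (0.87) and SFN at an unadjusted p under 0.05 by edgeR, and a median log2 fold change of 0.05. Of 14 genes of cornified or suprabasal epithelium 6 had no count, and only TGM1 was at 10 CPM or more.

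KRT7, KRT8, KRT18 and KRT19 are also known from amnion, trophoblast and mesothelium, so those lists were measured as well. Of 14 amnion genes 13 were at a mean of 10 CPM or more, among them IGFBP3, the most abundant, IGFBP5 and GABRP. Their summed level was 7539, 7630 and 7749 CPM in NC against 8439, 8035 and 8517 CPM in Si-HOXA3. The sum was weighted by IGFBP3, which averaged 3117 CPM in NC against 3646 CPM in Si-HOXA3 and did not pass (adjusted p = 0.806, edgeR). Their median log2 fold change was 0.15. Among the amnion genes tested, GABRP (log2 fold change -0.03), TNC (-0.13) and BMP4 (-0.13) were below 0 and the others above 0. Of 22 trophoblast genes 16 were tested and the most abundant were GATA3, TFAP2A and PAPPA2. HSD3B1 had 122, 126 and 129 CPM in NC against 87.3, 98.3 and 90.6 CPM in Si-HOXA3 (log2 fold change -0.44, standard error 0.0952, unadjusted p = 0.000661, adjusted p = 0.458, edgeR; adjusted p = 0.0315 by DESeq2 and 0.00676 by edgeR without Si-HOXA3 replicate 2). CYP19A1 was also lower (-0.67) and PAPPA2 higher (0.43) at an unadjusted p under 0.05 by edgeR, with adjusted p-values of 0.549 and 0.773 (PAPPA2 0.00102 without Si-HOXA3 replicate 2), while CDX2 had 29 counts in all, ELF5 24 and CGB3 1.

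Of 8 mesothelium genes 6 were tested, with BNC1, LRRN4 and PDPN the most abundant, and LRRN4 was lower at an unadjusted p under 0.05 by edgeR (-0.38, adjusted p = 0.606). Of 13 mesenchyme genes 10 were tested, led by COL1A1, LUM and COL1A2, and their summed level was 4555, 4724 and 4547 CPM in NC against 4574, 4945 and 5079 CPM in Si-HOXA3. DCN (0.47) and THY1 (0.41) had higher values at an unadjusted p under 0.05 by edgeR, and PRRX1 had no count. DCN had 0.34 without Si-HOXA3 replicate 2 (unadjusted p = 0.214, edgeR), 0.32 without NC replicate 1 (unadjusted p = 0.174, edgeR) and 0.25 with limma-voom (unadjusted p = 0.276). Of 10 pluripotency genes LIN28A, DNMT3B and ZFP42 were the most abundant and 0 had an unadjusted p under 0.05 by edgeR. Of 10 neural genes 1 was tested (STMN2), and TUBB3 and OTX2, the next most abundant, were below 1 CPM on average. Of 9 liver genes 4 were tested, led by APOB, AFP and APOA1, with 0 at an unadjusted p under 0.05 by edgeR. The part of any of these cell types in the keratin values was not tested.

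**Figure D5:**
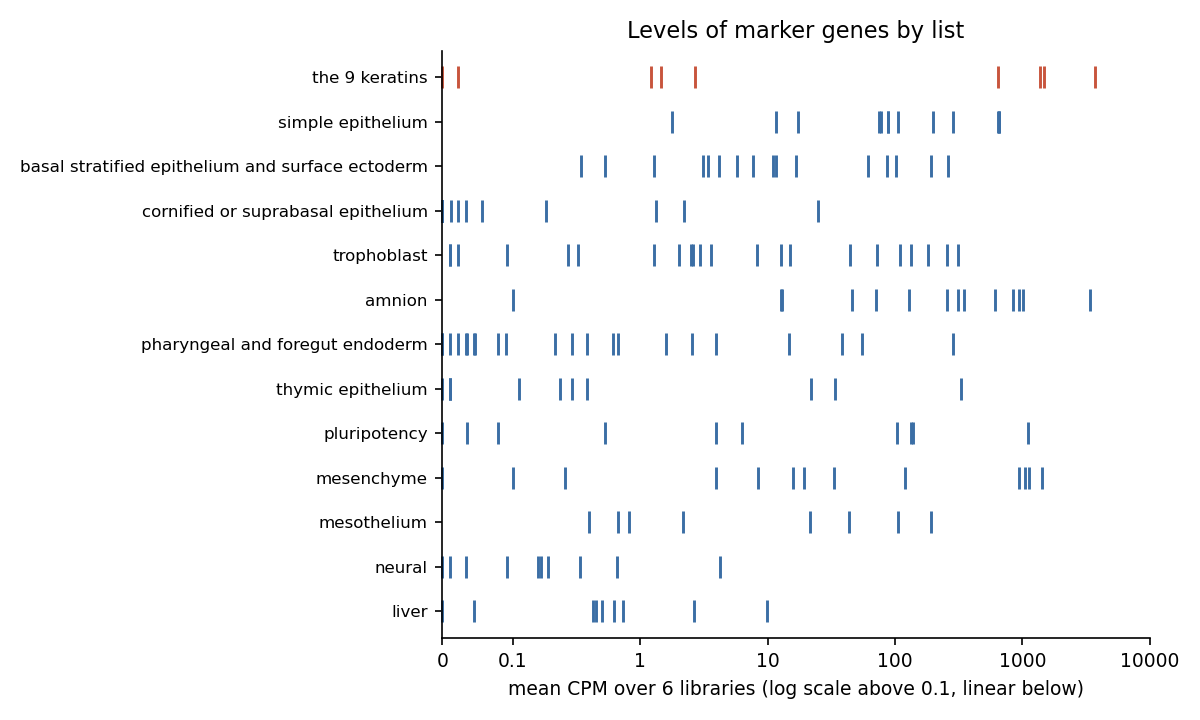
Mean CPM over the 6 libraries (log scale above 0.1, linear below) of each of the 9 keratin genes (red ticks) and of each gene of 12 marker lists (blue ticks). Most endoderm, cornified, neural and liver genes lie below 1 CPM, and 13 of the 14 amnion genes lie at 10 CPM or more.

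Over all 15 lists, 139 of 210 genes were tested, 0 passed an adjusted p of 0.05 by edgeR and 17 (12.2%) had an unadjusted p under 0.05, against 6.36% of all genes. The lists were chosen with earlier results of these data known, so these shares are not an independent comparison. Of the 17 genes, 13 were higher and 4 lower in Si-HOXA3. Under some alternatives an adjusted p under 0.05 was reached, by JUN, HSD3B1 and CD74 with DESeq2, by SFN, CD74 and VIM with no filter, by JUN, HSD3B1, PAPPA2, CD74 and TFAP2B with limma-voom, and by JUN, HSD3B1 and PAPPA2 without Si-HOXA3 replicate 2. Of the 17 genes, DCN, STUB1, TFAP2A, PAPPA2, PRSS16 and CLDN7 were among those no longer under an unadjusted p of 0.05 when 1 library or another was left out. The median log2 fold change was -0.05 for trophoblast, 0.07 for mesothelium, 0.17 for mesenchyme, 0.12 for pluripotency and 0.09 for endoderm genes, and 0.13 for other intermediate filaments. Without Si-HOXA3 replicate 2 these medians were -0.06, 0.06, 0.21, 0.06, 0.04 and 0.12.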

How the data were processed

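RNA-seq libraries of 3PPE, 3 NC and 3 Si-HOXA3, were analysed. The authors deposited raw counts of reads per gene for the 6 libraries, without normalization. The labels name the LM-Seq protocol and a SMARTER kit, and the reads were single. The aligner, counting program, annotation and handling of reads that match several genes are not given in the sources used here. The submitters' processing notes name the mouse builds GRCm38 and mm10, but all 58735 gene identifiers were human ones of GENCODE 29 (GRCh38), which gave symbols, positions, lengths and sequences.

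Counts were tested in R 4.3.3 with edgeR 4.0.16 (filterByExpr, TMM, robust quasi-likelihood fit, two-sided), and p-values were adjusted over 16561 genes by the Benjamini-Hochberg method. Normalization factors were 0.986 to 1.01. DESeq2 1.42.0, limma 3.58.1 (voom with quality weights), upper-quartile scaling, library size only, no filter, a minimum of 1 CPM in 3 libraries, a block for the replicate number and leaving out each library were alternatives. The mean length of the APPRIS principal transcripts and added pseudogene counts were chosen after seeing the data. TPM were computed here from the counts and the union of exons, with the longest transcript and protein-coding genes alone as alternatives. The scripts were tested on simulated data.

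The keratin genes, the lists and the tests were chosen with earlier results of these data known. Genes named were the 9 keratins, HOXA3, other keratins at 1 CPM or more on average, the 3 most abundant genes of each list and those with an unadjusted p under 0.05, the markers at or near 0, and the 3 genes most like each keratin. Single values of a few genes of the lists, and some sequence, are not reported here.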

Additional observations from a re-analysis of the deposited data

How the results depend on the processing

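None of the 7 keratin genes tested passed an adjusted p of 0.05 under any of 13 alternatives, with a lowest adjusted p of 0.310 (KRT23, limma-voom). KRT7, KRT19, KRT17 and KRT23 kept their sign throughout. The log2 fold change of KRT8 turned to -0.066 with limma-voom and -0.075 without Si-HOXA3 replicate 2, and lay between -0.075 and 0.11 when a library was left out. That of KRT18 was 0.014 with upper-quartile scaling and lay between -0.21 and 0.10 when a library was left out, and that of KRT15 from -0.37 to 0.18. KRT16 ranged from -0.086 (without NC replicate 3) to 0.62. The cause of these changes of sign was not tested.

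The number of genes called at an adjusted p under 0.05 was 1 by edgeR, 38 by DESeq2, 67 by limma-voom, 100 with no filter, 4 with the replicate block and 1 to 24 with one library left out, 24 being without Si-HOXA3 replicate 2. Those with an unadjusted p under 0.05 numbered 1053, 1862 with no filter, 2215 by limma-voom and 643 to 1828 with one library left out (643 when it was NC replicate 2, 671 for NC replicate 3 and 1828 for Si-HOXA3 replicate 2). Of the listed genes, 0 passed the adjusted threshold by edgeR, 3 by DESeq2, 3 with no filter, 5 by limma-voom and 0 to 3 with one library left out, and 17 had an unadjusted p under 0.05, 30 by limma-voom and 12 to 29 with one library left out. KRT10 was the 1 other keratin at an unadjusted p under 0.05, and the number was 0 to 1 with one library left out.

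The type II to type I ratio of TPM was 0.687 in NC and 0.642 in Si-HOXA3, 1.02 and 0.945 with the longest transcript, and 1.19 and 1.13 with the principal transcript. Of 195 list medians under an alternative, 178 moved by less than the spread between libraries. Same-numbered libraries correlated at 0.158, 0.111 and -0.071 in their deviations from the group means. Libraries of differing number correlated at -0.187 to 0.098. These values do not show that the numbers pair the samples, and 3 libraries a group are too few to exclude it. The replicate block gave 0 keratin genes at an adjusted p under 0.05. A count of 0 allows 3 counts, so KRT5 and KRT14 could not be compared at this depth.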
